A study of Mus musculus with 8 samples.

Results

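The genes described here are 8 mouse genes that mark the two-cell-like state of ESCs: *Zscan4c*, *Zscan4d*, *Zscan4f*, *Tcstv1*, *Tcstv3*, *Zfp352*, *Sp110* and *Spz1*. They were chosen by name, with earlier results of these data known. Array probes were assigned to them through the RefSeq accession of each probe. Of 39429 probes and 19751 named genes on the array, 11 probes belonged to 7 of the 8 genes. No probe was matched to *Zscan4d*, which therefore has no value. The data came from VV3 ESCs, a male mouse line with a Venus reporter of *Vasa* (*Ddx4*) grown on mitomycin C-treated STO feeder fibroblasts in medium with serum and LIF. In 4 samples siRNA against *L3mbtl2* was transfected (*L3mbtl2*-KD ESCs), and in 4 it was AllStars, a negative control siRNA (control ESCs). Of the knockdown cultures, FACS-purified *Vasa*-positive cells were used, and the methods do not state for these arrays whether control cells were sorted. RNA of each sample (100 ng) was labelled with Cy3 and hybridised to an array of its own, and the 4 samples of a group are labelled biological replicates. Between 59.5% and 66.6% of the spots of an array were well above background. The comparison asks which transcripts differ between *Vasa*-positive *L3mbtl2*-KD ESCs and control ESCs. It cannot tell the selection of *Vasa*-positive cells from the depletion of L3MBTL2.

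L3MBTL2 is a subunit of PCGF6-PRC1, a variant Polycomb complex that also holds MAX, MGA and E2F6 and represses germ cell-related genes in ESCs. Two-cell-like cells are a rare and transient state within ESC cultures, in which transcripts otherwise typical of the cleavage-stage embryo are expressed. Zscan4 proteins carry a SCAN domain and zinc fingers and are linked to telomere maintenance by recombination, while the transcription factor DUX activates many genes of this state.

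The promoters of the *Zscan4* genes are shown because the probes named for these genes rose together, as described further on. Promoter sequences from RefSeq (GRCm38.p6) were matched for 6 of the 8 genes, 7 windows in all. Each line gives the 250 bases before the annotated start, 5′ to 3′ on the strand of the gene, with TATAAA in capitals.
Zscan4c, chr7:11005495-11005744, plus strand: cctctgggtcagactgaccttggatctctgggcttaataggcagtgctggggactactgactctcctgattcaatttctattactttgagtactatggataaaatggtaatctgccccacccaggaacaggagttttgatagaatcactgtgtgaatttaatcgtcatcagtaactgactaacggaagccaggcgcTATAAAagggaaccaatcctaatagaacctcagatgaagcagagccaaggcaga
Zscan4d, chr7:11166149-11166398, minus strand: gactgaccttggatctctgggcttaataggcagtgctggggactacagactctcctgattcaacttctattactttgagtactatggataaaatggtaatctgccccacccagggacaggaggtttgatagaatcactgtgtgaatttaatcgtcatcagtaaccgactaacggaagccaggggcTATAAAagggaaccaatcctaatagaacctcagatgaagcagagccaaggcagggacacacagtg
Zscan4f, chr7:11397665-11397914, plus strand: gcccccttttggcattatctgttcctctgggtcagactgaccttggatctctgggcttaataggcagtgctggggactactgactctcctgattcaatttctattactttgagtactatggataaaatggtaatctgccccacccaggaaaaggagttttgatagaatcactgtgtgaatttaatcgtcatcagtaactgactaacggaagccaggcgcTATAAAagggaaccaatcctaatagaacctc
The windows of *Zscan4c* and *Zscan4f* were 99.3% identical over 277 aligned positions, those of *Zscan4c* and *Zscan4d* 97.6% over 287, and those of *Zscan4d* and *Zscan4f* 97.4% over 266, out of 300 bases that include 50 after the start. Each held TATAAA once, beginning 54 bases before the annotated start in *Zscan4c*, 65 in *Zscan4d* and 31 in *Zscan4f*. The word was found on either strand in 12.4% of 32851 promoter windows of 250 bases.

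In the 7 windows, searched on both strands, none held CACGTG (E-box, 6.02% of all windows), TCCCGC (E2F, 16.9%) or the DUX word (TGATT and AATCA with 1 base between them, 0.0304%). A second set is shown because *Zfp352* and *Sp110*, which differed in their response as described further on, share a repeated word, TTAATC, that was noticed after the sequences had been read. It can overlap the DUX word, and it stands in capitals here, on either strand.
Zfp352, chr4:90218570-90218819, plus strand: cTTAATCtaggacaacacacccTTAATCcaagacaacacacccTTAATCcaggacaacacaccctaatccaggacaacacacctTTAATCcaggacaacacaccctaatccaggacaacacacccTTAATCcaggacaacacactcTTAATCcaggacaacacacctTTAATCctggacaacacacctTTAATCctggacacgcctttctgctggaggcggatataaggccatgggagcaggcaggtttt
Sp110, chr1:85603892-85604141, minus strand: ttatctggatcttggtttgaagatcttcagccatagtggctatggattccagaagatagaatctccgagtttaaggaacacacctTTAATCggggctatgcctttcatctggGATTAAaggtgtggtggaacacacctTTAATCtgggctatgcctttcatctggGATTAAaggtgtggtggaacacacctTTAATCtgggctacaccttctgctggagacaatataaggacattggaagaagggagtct
Sp110, chr1:85598811-85599060, minus strand: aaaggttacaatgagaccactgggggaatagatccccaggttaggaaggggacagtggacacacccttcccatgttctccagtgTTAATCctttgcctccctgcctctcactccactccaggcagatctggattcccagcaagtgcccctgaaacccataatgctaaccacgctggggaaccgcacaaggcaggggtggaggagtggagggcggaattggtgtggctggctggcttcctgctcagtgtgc
The word occurred 8 times in the window of *Zfp352*, 5 times in the more distal window of *Sp110* and once in its other window. Each *Zscan4* window held it once (in lower case above), so 6 of the 7 windows held it. It was present in 6.66% of all windows, and 3 windows of 32851 held it at least 5 times. Because the word was picked from these same windows, and those of *Zscan4* are near-identical, these counts are no test of it. *Sp110* has 2 annotated starts, and which of them a probe reports on is not known here.

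The siRNA target was measured first. On a log2 scale where 0 is the 75th percentile of the array's intensity, *L3mbtl2* (NM_145993) was at 0.27, -0.18, -0.21 and -0.31 in control replicates 1 to 4 and at -1.45, -1.26, -1.58 and -1.73 in *L3mbtl2*-KD replicates 1 to 4. All 4 *L3mbtl2*-KD arrays lay below all control arrays, and the log2 fold change was -1.40 (standard error 0.15, limma adjusted p = 0.00094). *Ddx4* (NM_010029), the gene of the reporter used for the sort, was at 0.86, 0.99, 0.99 and 0.85 in control ESCs and 3.87, 3.62, 3.70 and 3.82 in *L3mbtl2*-KD ESCs. Its arrays separated in the other direction, by a log2 fold change of 2.83 (standard error 0.087, limma adjusted p = 4.87e-06).

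Most of the two-cell-like genes were higher in *L3mbtl2*-KD ESCs. A probe was called when it changed more than 2-fold with a limma adjusted p under 0.05, and 8 of the 11 probes were called up-regulated, against 2.49% of all 23524 probes tested. They belonged to *Zscan4c*, *Zscan4f*, *Tcstv1*, *Tcstv3* and *Sp110*, so 5 of the 8 genes had an up-regulated probe, against 2.49% of the 13656 named genes tested. Fold changes of the called probes ran from 3.33 to 5.36. *Zfp352*, *Spz1* and 1 probe of *Sp110* were not called, and no probe was called down-regulated, a call made for 2.66% of all probes and, in at least 1 probe, 3.22% of all named genes. In 8 of the 11 probes all *L3mbtl2*-KD arrays lay above all control arrays, which was so for 11.3% of all probes tested. The median log2 fold change was 2.05 over the 11 probes and -0.03 over all probes tested. Of the 11 probes, 10 were well above background on all 8 arrays, and *Spz1* passed the filter only through the *L3mbtl2*-KD group. RNA was taken from bulk samples, in which more cells of the two-cell-like kind and more RNA per cell cannot be told apart.

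**Figure D1:**
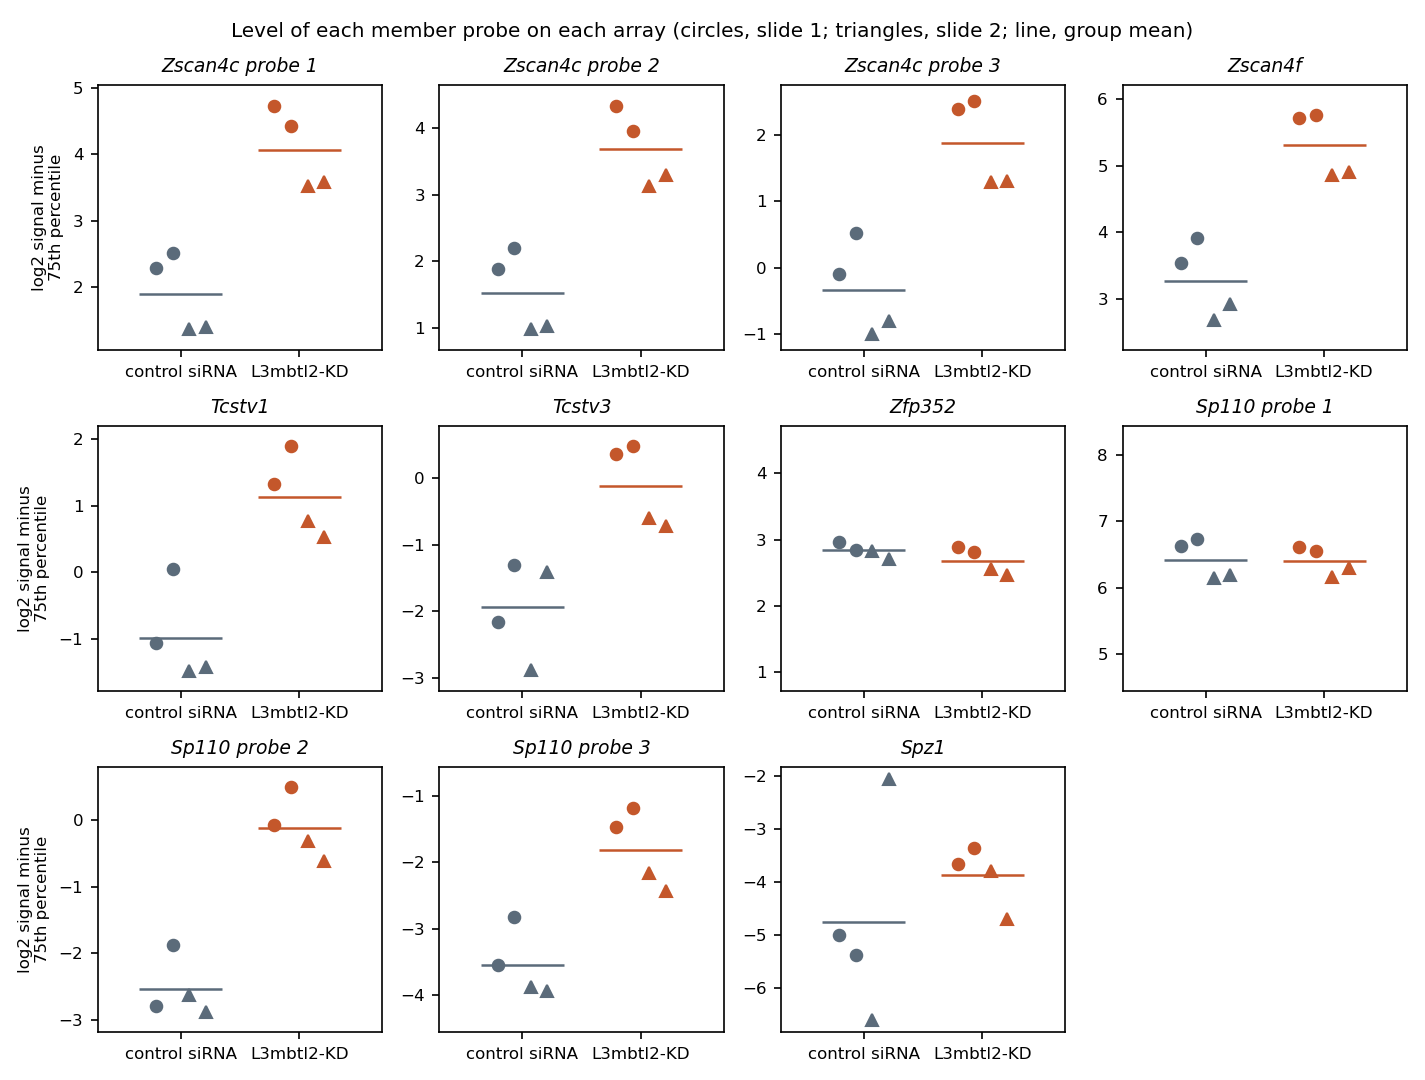
Level of each of the 11 probes on each array, as log2 intensity minus the 75th percentile of the array (vertical axis), in control siRNA and *L3mbtl2*-KD ESCs, with lines at the group means. Circles are arrays of slide 1 and triangles arrays of slide 2. The groups are apart in 8 panels and overlap for *Zfp352*, *Sp110* probe 1 and *Spz1*.

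*Zscan4c* (NM_001013765) had 3 probes, numbered here by mean signal. Probe 1 was at 2.29, 2.51, 1.37 and 1.40 in control replicates 1 to 4 and at 4.73, 4.42, 3.52 and 3.59 in *L3mbtl2*-KD replicates 1 to 4. The lowest *L3mbtl2*-KD array was above the highest control array, and in both groups replicates 1 and 2, which share a slide, were higher than replicates 3 and 4. The group means were 1.89 ± 0.59 and 4.07 ± 0.60 (SD, n = 4 each), and the log2 fold change was 2.18 (standard error 0.36), or 4.52-fold. The difference exceeded the spread between samples (limma adjusted p = 0.0054; p = 0.0286 in a two-sided exact permutation test, which cannot go lower with 4 arrays a group).

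Probe 2 of *Zscan4c* was at 1.88, 2.20, 0.98 and 1.02 in control ESCs and 4.34, 3.96, 3.14 and 3.30 in *L3mbtl2*-KD ESCs, and probe 3 was at -0.09, 0.52, -1.0 and -0.80 against 2.38, 2.51, 1.29 and 1.30. Both kept the groups apart and had the same lower pair of arrays in each group. Their log2 fold changes were 2.16 (standard error 0.36) and 2.21 (standard error 0.41), with limma adjusted p of 0.0052 and 0.0085. Within slide 1 the log2 fold changes of probes 1 to 3 were 2.18, 2.11 and 2.23, and within slide 2 they were 2.17, 2.22 and 2.19.

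*Zscan4f* (NM_001110316), a further gene of the cluster, was at 3.54, 3.91, 2.68 and 2.92 in control replicates 1 to 4 and at 5.72, 5.76, 4.86 and 4.91 in *L3mbtl2*-KD replicates 1 to 4. The groups did not overlap, and replicates 3 and 4 were again the lower ones on both sides. Means were 3.26 ± 0.56 and 5.31 ± 0.49 (SD, n = 4 each), a log2 fold change of 2.05 (standard error 0.32, limma adjusted p = 0.0042), or 4.14-fold. It was 2.01 within slide 1 and 2.09 within slide 2. Probe sequences were not used here, and because the copies of *Zscan4* are near-identical, a probe named for one of them may also bind transcripts of another, *Zscan4d* included.

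*Tcstv1* (NM_018756), a gene named for its expression at the cleavage stage, was at -1.07, 0.04, -1.49 and -1.43 in control ESCs and 1.32, 1.90, 0.77 and 0.53 in *L3mbtl2*-KD ESCs. Replicate 2 was the highest array of each group, and no *L3mbtl2*-KD array reached down to the control range. From -0.99 ± 0.71 to 1.13 ± 0.61 (SD, n = 4 each), the log2 fold change was 2.12 (standard error 0.40, limma adjusted p = 0.0091), or 4.34-fold, with 2.13 within slide 1 and 2.11 within slide 2.

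*Tcstv3* (NM_153523) was at -2.16, -1.30, -2.89 and -1.41 in control ESCs and 0.36, 0.48, -0.59 and -0.72 in *L3mbtl2*-KD ESCs. The groups did not overlap, but replicate 4 was close together, with a difference of 0.68 against 1.78 to 2.52 in the other replicate numbers. The log2 fold change was 1.82 (standard error 0.41, limma adjusted p = 0.0184), or 3.53-fold. It was 2.15 within slide 1 and 1.49 within slide 2. The call was lost when each probe was tested alone with the one-way test named in the paper's figure legends, in place of limma (adjusted p = 0.0573).

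*Sp110* (NM_175397), which encodes a nuclear body protein of the Sp100 family, had 3 probes that disagreed. Probe 1 was at 6.62, 6.73, 6.15 and 6.19 in control ESCs and 6.61, 6.55, 6.16 and 6.29 in *L3mbtl2*-KD ESCs, and the groups overlapped fully. Its log2 fold change was -0.02 (standard error 0.17, limma adjusted p = 0.942). Probe 2 was at -2.79, -1.87, -2.63 and -2.88 against -0.07, 0.50, -0.31 and -0.61, with every *L3mbtl2*-KD array above the control range. It changed 5.36-fold (2.42 on the log2 scale with a standard error of 0.28; limma adjusted p = 0.0013).

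Probe 3 of *Sp110* was at -3.55, -2.83, -3.88 and -3.93 in control ESCs and -1.47, -1.19, -2.16 and -2.43 in *L3mbtl2*-KD ESCs, and these groups were also apart. It changed 3.33-fold (1.73 on the log2 scale with a standard error of 0.33; limma adjusted p = 0.0095). The 3 probes carry the same RefSeq accession, so the gene name alone does not tell which transcript each one measured. The log2 fold changes within slides 1 and 2 were -0.10 and 0.05 for probe 1, 2.54 and 2.30 for probe 2, and 1.86 and 1.61 for probe 3.

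*Zfp352* (NM_153102) is a zinc finger gene of the cleavage-stage embryo. It was at 2.97, 2.84, 2.82 and 2.71 in control ESCs and at 2.88, 2.81, 2.56 and 2.46 in *L3mbtl2*-KD ESCs. The groups overlapped, and the standard deviations were 0.11 and 0.20. The log2 fold change was -0.15 (standard error 0.12, limma adjusted p = 0.389), with -0.06 within slide 1 and -0.25 within slide 2.

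*Spz1* (NM_030237) encodes a transcription factor named for spermatogenesis. Its probe was well above background on 4 *L3mbtl2*-KD arrays and on 2 control arrays, with values of -5.00, -5.37, -6.61 and -2.05 in control ESCs and -3.66, -3.35, -3.80 and -4.70 in *L3mbtl2*-KD ESCs. Control replicate 4 was the highest of the 8 arrays, and the other 3 control arrays were the lowest 3. The log2 fold change of 0.88 (standard error 0.85) did not pass the test (limma adjusted p = 0.513; two-sided exact permutation test, p = 0.4). Without control replicate 4 it was 1.78 (limma adjusted p = 0.039), without control replicate 3 it was 0.26 (limma adjusted p = 0.862), and it was 1.68 within slide 1 and 0.08 within slide 2.

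**Figure D2:**
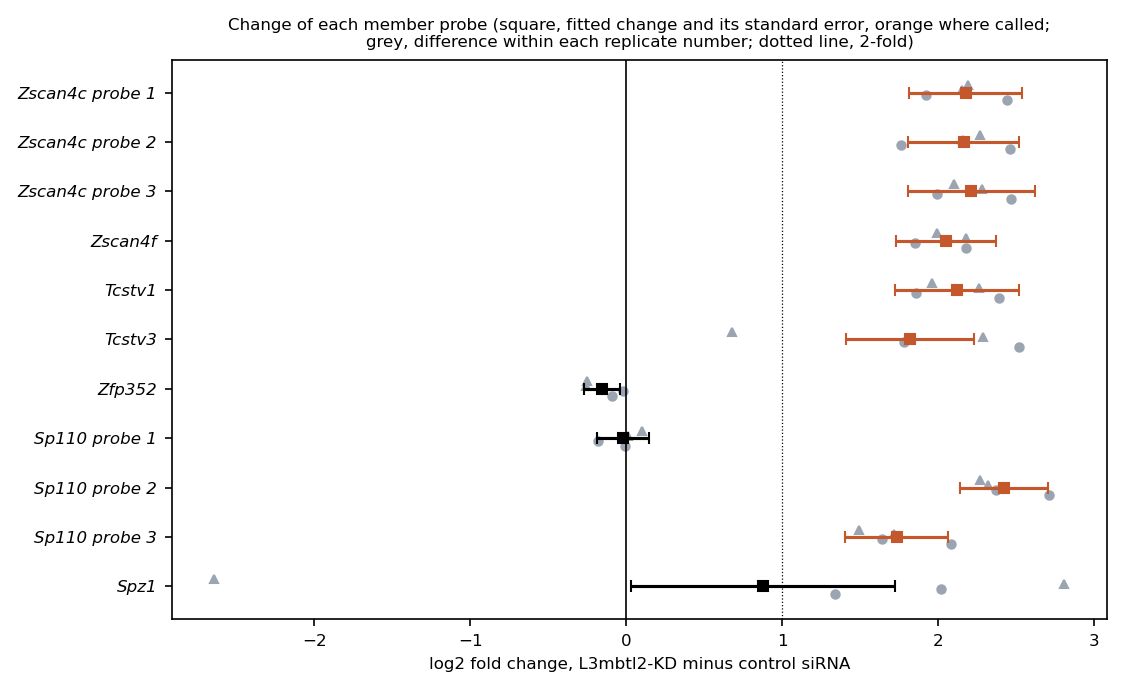
Fitted log2 fold change of each probe in *L3mbtl2*-KD against control ESCs, with its standard error (squares, orange where called), and the difference within each replicate number (grey). The differences within replicate 4 of *Tcstv3* (0.68) and *Spz1* (-2.64) lie apart from those of the other numbers.

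The level of some of these genes also differed between the slides, in tests chosen after the data had been seen. Slide 1 held replicates 1 and 2 of both groups and slide 2 held replicates 3 and 4. A slide difference and a difference between these 2 sets of replicates therefore cannot be told apart. In a limma fit with both group and slide, a slide difference at an adjusted p under 0.05 was found in 6 of the 11 probes, all higher on slide 1, against 4.36% of all probes higher on slide 1. These were the 3 probes of *Zscan4c* (1.02, 0.99 and 1.13 on the log2 scale), *Zscan4f* (0.89) and *Sp110* probes 1 (0.43) and 3 (0.84). For *Tcstv1* the slide difference was 0.95, with an adjusted p of 0.061. With the slide as a block, all 8 up-regulated probes kept their call, with limma adjusted p from 3.62e-05 to 0.0101. The knockdown effect itself did not pass an adjusted test of its difference between slides in any of the 23524 probes in limma, whereas 1.36% had an unadjusted p under 0.05. Among the 11 probes the lowest unadjusted p of this test in limma was 0.246, for *Zfp352*.

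Values across the 8 arrays were compared with those of *Zscan4c* probe 1, each probe centred on its control mean. The 5 named genes outside the chosen ones that differed least were *Spopfm2*, *Gm16367*, *Gm2016*, *Gm5039* and *Tdpoz2*, with mean absolute log2 differences of 0.12, 0.14, 0.16, 0.16 and 0.16. They were chosen by this likeness, so their changes are no separate evidence, and *Tdpoz2* was well above background on only 3 of the 4 control arrays. Of 23446 probes with a value on every array, 71 others lay within 0.25 of *Zscan4c* probe 1. They included 3 of the 11 probes (the other 2 of *Zscan4c*, and *Zscan4f*), 37 unnamed probes and 31 probes of 25 other genes, 12 of them in the list of other two-cell-like genes. Mean absolute differences were 0.27 for *Tcstv1*, 0.44 for *Tcstv3*, 0.38 and 0.32 for *Sp110* probes 2 and 3, and 1.38 for *Zfp352*.

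**Figure D3:**
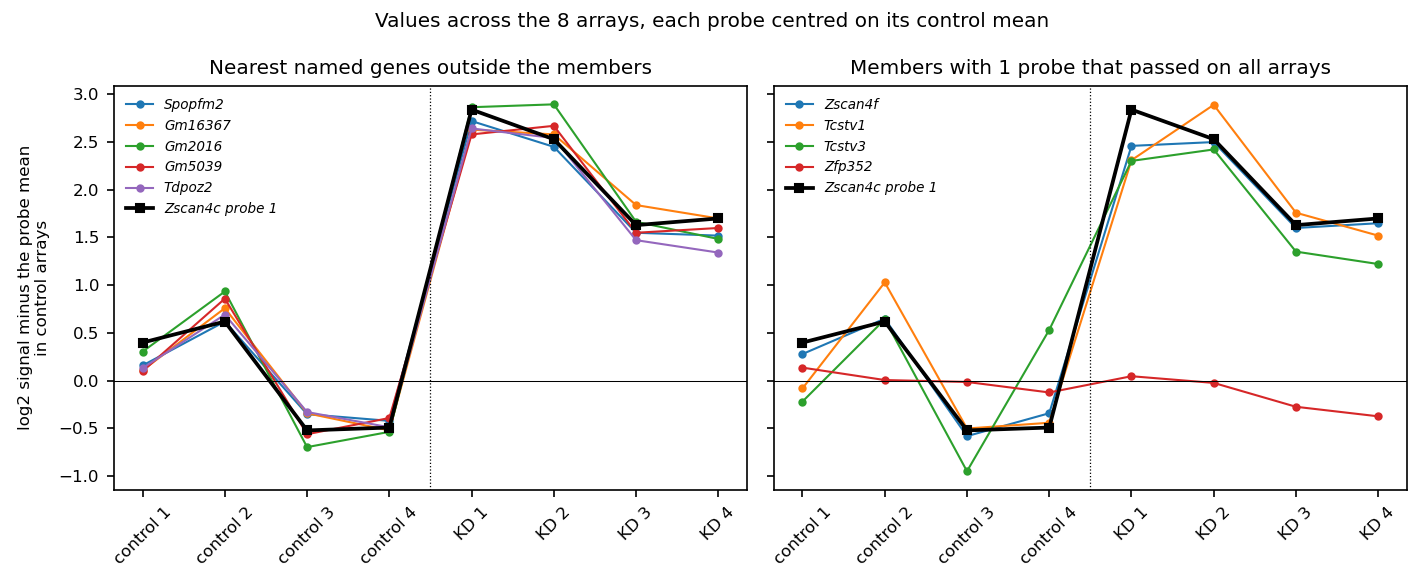
Log2 intensity of single probes across the 8 arrays, each centred on its mean in control ESCs, for *Zscan4c* probe 1 (black) with the 5 nearest named genes (left) and with 4 of the chosen genes (right). *Tcstv3* leaves the black line at control replicate 4, and *Zfp352* stays near 0.

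The list of other two-cell-like genes held 48 genes, of which 28 had a probe and 23 were tested. Of these, 21 were up-regulated and 0 down-regulated in limma, against 2.49% and 3.22% of all named genes tested. At an unadjusted p under 0.05 in limma, 0 were lower. The median log2 fold change was 2.11, beside -0.03 over all probes tested. The list was chosen with earlier results of these data known, so its counts are no separate evidence. In 4 of the 23 the probe was not well above background on every control array, so these passed only through the *L3mbtl2*-KD group. With only probes well above background on all 8 arrays, 18 of the other 19 were up-regulated. *Usp17lb* and *Usp17la*, which encode deubiquitinases, had log2 fold changes of 2.85 (standard error 0.37) and 2.53 (standard error 0.33). *Pramel19*, of the Prame-like family, had 2.77 (standard error 0.43) and *E330014E10Rik* had 2.76 (standard error 0.42). Limma adjusted p of these 4 ran from 0.0020 to 0.0043, and none of them overlapped between groups. A second probe of *Usp17la* was not called (0.28, standard error 0.19). The 2 tested genes not called were *Zfp750* (0.91) and *B020031M17Rik* (0.13), named after their values were seen. Many of these genes belong to families of near-copies that a probe may not separate.

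Genes known to act on the two-cell-like state changed less than 2-fold or did not pass the test. *Dppa2* and *Dppa4* encode DNA-binding partners that act upstream of *Dux*. Of 4 tested activators, 0 were called in limma, although 3 were higher at an adjusted p under 0.05 with a smaller change and all 4 had an unadjusted p under 0.05. The share of all probes at these p thresholds, whatever the change, was not counted. Such counts, here and in the lists below, are not read as a trait of a list. Log2 fold changes were 0.81 for *Dppa2* (standard error 0.23, limma adjusted p = 0.0416) and 0.31 for *Dppa4* (limma adjusted p = 0.0295). *Nelfa*, named after its value was seen, was at 0.62 (limma adjusted p = 0.0073). *Tbx3* was lower, at -0.74 (standard error 0.27, limma adjusted p = 0.089), and the median was 0.47. *Dux* itself (*Duxf3*) had no probe matched to it. Of 12 repressors, a list that includes *Trim28* and the CAF-1 subunits, 0 were called (3 at an unadjusted p under 0.05, 1 of them lower) and the median was 0.07, with 0.05 for *Ncl* and -0.35 for *Ehmt2* (limma adjusted p = 0.0149). In the L3MBTL2 complex, *L3mbtl2* was the 1 gene of 14 that was called, and *Hdac1* (0.27) and *Cbx3* (0.06) were not. *E2f6* (0.56, limma adjusted p = 0.011), *Yaf2* (0.41, limma adjusted p = 0.018) and *Hdac2* (0.36, limma adjusted p = 0.013), named after their values were seen, passed the adjusted threshold with less than a 2-fold change. With *L3mbtl2*, 4 of the 14 passed the adjusted threshold at any size of change, and the share of all probes that did so was not counted. The median of these 14 was 0.04.

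Lists around the roles of single genes were mostly uncalled. Of 9 tested genes of telomere maintenance and meiotic recombination, 0 were called in limma and 4 had an unadjusted p under 0.05, all of them higher in *L3mbtl2*-KD ESCs. No share of all probes was counted at that p, so the 4 are not read as a trait of the list. Of the 4, *Smc1b* (0.68, limma adjusted p = 0.0033) and *Dmc1* (0.34, limma adjusted p = 0.0229), named after their values were seen, passed the adjusted threshold with less than a 2-fold change. Their groups did not overlap, which was so for 11.3% of all probes tested in this direction. The fit of this list did not use the replicate numbers. Within each number *Tinf2* (0.33 to 0.43) and *Terf2* (0.20 to 0.28), named after their values were seen, were also higher. The median was 0.18, and the 2 genes with the highest signal, *Terf1* and *Rtel1*, were at 0.18 and -0.09. Over the 13 tested genes of the Sp100 family and the interferon response, the median was 0.16. Of these 13, 2 were up-regulated, against 2.49% of all named genes tested. These were *Sp140*, a relative of *Sp110* (1.18, standard error 0.15, limma adjusted p = 0.0020), and the ubiquitin-like *Isg15* (1.15, standard error 0.32, limma adjusted p = 0.0409), whose groups overlapped. For *Isg15* the difference was 2.27 within replicate 3 and 0.50 to 1.04 within the other numbers. The summed level of the list was 54.8 in *L3mbtl2*-KD replicate 3 and 33.5 to 39.0 in the other *L3mbtl2*-KD replicates.

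**Figure D4:**
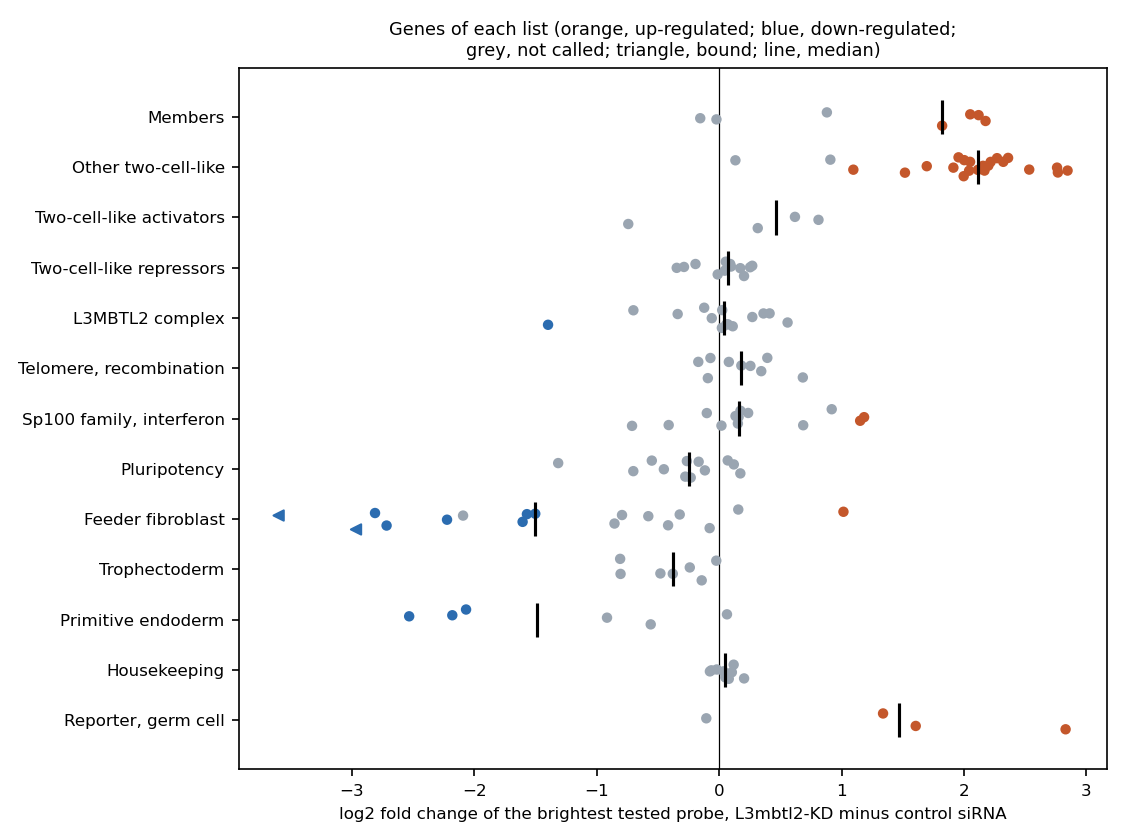
Log2 fold change of the tested probe with the highest mean signal for each gene of each list, with a line at the median over all tested genes of the list, those with a bound included. Orange and blue points are probes called up-regulated and down-regulated, and triangles are lower bounds of a fall. The other two-cell-like genes have a median of 2.11 and the housekeeping genes one of 0.05.

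Neighbouring genes were read from the RefSeq gene order. Of 22 nearest genes with a tested probe, leaving out the chosen genes themselves, 5 were up-regulated and 0 down-regulated in limma. Over all named genes tested, these calls were made for 2.49% and 3.22%. At an unadjusted p under 0.05, 3 neighbours were lower and 9 were higher, the 5 included, and the share of all probes at that p was not counted. *Tcstv1* and *Tcstv3* lie on chromosome 13 among related genes, of which *AF067063* (1.10), *Gm20767* (2.27), *AF067061* (2.22) and *BC147527* (2.11) were up-regulated, all 4 already counted in the list of other two-cell-like genes, while *B020031M17Rik* between *Tcstv1* and *Gm20767* was at 2.15 to 3.41 in control ESCs and 2.35 to 3.11 in *L3mbtl2*-KD ESCs. *Zfp131*, the next tested gene outside this group, had a log2 fold change of 0.09. In the table, no tested gene followed *Tcstv3*.

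On chromosome 7 the nearest genes with a tested probe were not called, and none of them adjoins the *Zscan4* genes. *Vmn1r70* and *Zik1*, with 17 and 23 annotated genes between them and *Zscan4c*, had log2 fold changes of -0.30 and -0.59 (limma adjusted p = 0.113 and 0.0091). *Zfp551* and *Zfp606*, with 56 and 58 between them and *Zscan4f*, had -0.22 and -0.23. On chromosome 1, *Sp140* next to *Sp110* was up-regulated and *Sp100* beyond it was at 0.15, while *C130026I21Rik* (1.47, standard error 0.88) and *A530032D15Rik* (0.61) did not pass the threshold. None of the 4 neighbours of *Zfp352* (*Cdkn2a*, *Cdkn2b*, *Elavl2* and *Tusc1*) or of *Spz1* (*Ankrd34b*, *Zfyve16*, *Serinc5* and *Mtx3*) was called, although *Ankrd34b* (0.49, limma adjusted p = 0.0203) and *Zfyve16* (0.42, limma adjusted p = 0.0138) passed the adjusted threshold with less than a 2-fold change.

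**Figure D5:**
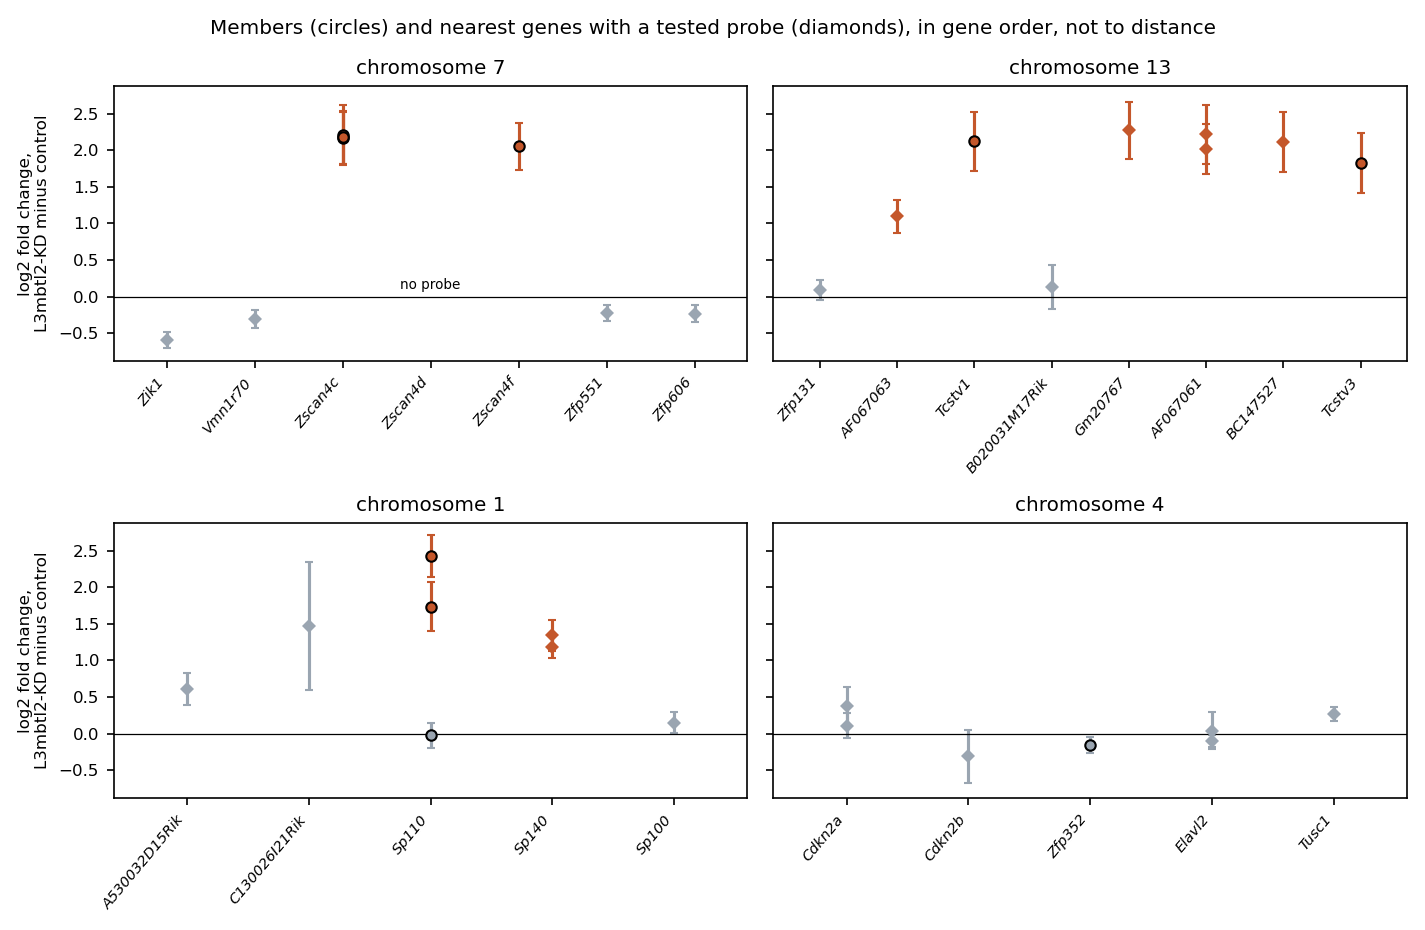
Log2 fold change and its standard error of *Zscan4*, *Tcstv*, *Sp110* and *Zfp352* probes (circles) and of the nearest genes with a tested probe (diamonds), in gene order and not to distance. Orange marks up-regulated probes. On chromosome 13, *B020031M17Rik* (0.13) stands between up-regulated genes.

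Markers of other cells were measured beside these genes. All 12 pluripotency genes were well above background on all 8 arrays, and 0 were called in limma, with a median of -0.25. Of the 12, 9 were lower in *L3mbtl2*-KD ESCs, among them all 4 with an unadjusted p under 0.05. The share of all probes at that p was not counted, so the 4 are not read as a trait of the list. These 4, named after their values were seen, were *Nanog* (-1.32, standard error 0.49), *Klf4* (-0.70, standard error 0.18), *Fgf4* (-0.55) and *Tdgf1* (-0.28). Their limma adjusted p was 0.0962, 0.0274, 0.0685 and 0.058, so only *Klf4* passed the adjusted threshold, and the groups of *Nanog* overlapped. The 2 with the highest signal, *Dppa5a* and *Utf1*, were at 0.17 and 0.12. Over all named genes tested, 3.22% were called down-regulated and 2.49% up-regulated. Of 17 tested feeder fibroblast genes out of 20, 8 were down-regulated and 1, *Loxl1* (1.01, named after its value was seen), was up-regulated in 1 of its 2 probes. Their summed level, in units of the 75th percentile of the array, was 18.2, 24.1, 25.0 and 29.5 in control replicates 1 to 4 and 12.95, 11.3, 14.1 and 14.6 in *L3mbtl2*-KD replicates 1 to 4, with the probe of *Vim* the brightest. The median log2 fold change over the 17 tested genes was -1.50, also with *Dcn* and *Col3a1* at the bounds given next. *Dcn* and *Col3a1* were not well above background on any *L3mbtl2*-KD array and so have bounds only, at least 12.1-fold lower for *Dcn* and at least 7.81-fold lower for *Col3a1*, while *Col1a2* (-2.81) and *Acta2* (-2.72) were measured in both groups. Such a bound sets the brighter group's mean against, on each array of the dimmer group, the lowest signal well above background, or what the probe itself gave if that was more. *Lum*, *Postn* and *Prrx1* were not well above background on any array.

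Of 6 primitive endoderm genes, 3 were down-regulated, a call made for 3.22% of all named genes tested. They were *Lama1* (-2.18), *Sox17* (-2.07, well above background on 3 *L3mbtl2*-KD arrays) and *Dab2*. *Dab2* was well above background on 1 *L3mbtl2*-KD array only, so the size of its fall is not given. The sum of the list was 15.0, 12.4, 12.7 and 15.9 in control ESCs and 4.20, 5.39, 3.95 and 2.89 in *L3mbtl2*-KD ESCs, with the probe of *Lama1* the brightest and a median log2 fold change of -1.49. Of 7 tested trophectoderm genes, 0 were called in limma and 1 had an unadjusted p under 0.05, with a median of -0.38 and values of -0.02 for *Tfap2c* and -0.38 for *Krt18*. *Elf5* was not well above background on any array. The called feeder fibroblast and primitive endoderm genes changed in the same contrast as the two-cell-like genes, and their part in the result was not tested. The selection of *Vasa*-positive cells and the knockdown cannot be told apart in this comparison.

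Among 9 housekeeping genes 0 were called in limma and 0 had an unadjusted p under 0.05, with a median of 0.05 and values of 0.05 for *Ppia* and 0.03 for *Gapdh*. In the list of the reporter gene and late PGC markers, 3 of 4 were up-regulated, against 2.49% of all named genes tested. They were *Ddx4*, *Dazl* (1.61) and *Stra8* (1.34), while *Sycp3* was not called (-0.11, limma adjusted p = 0.629). The median was 1.47. *Ddx4* is the gene of the reporter used for the sort, so its rise is no separate evidence in this count or median. The summed level of the other two-cell-like genes was 44.2, 71.7, 30.8 and 37.3 in control ESCs and 211, 273, 124 and 117 in *L3mbtl2*-KD ESCs, so the lowest *L3mbtl2*-KD array was above the highest control array.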

How the data were processed

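The authors deposited, for each array, spot intensity values background-subtracted by Feature Extraction, and a table of log2 values from a 75 percentile shift in GeneSpring. The latter matched log2 intensities centred on each probe's median (r at least 0.9999 over 39242 probes). Here, each array's 75th percentile of log2 intensity was subtracted from its values, without control or outlier spots, averaging spots of a probe. Of 39429 probes, 26055 were named through RefSeq (GRCm38.p6). The 23524 probes well above background on all arrays of either group were fitted with limma 3.58.1 (R 4.3.3), and p was adjusted over them by Benjamini-Hochberg; the fit was tested on simulated data. Deviations correlated at 0.38 to 0.58 between samples with the same number and -0.44 to 0.25 otherwise, so numbers pair samples, as inferred from the values. Control and *L3mbtl2*-KD arrays always took different slide positions, so position and group cannot be told apart. Named genes were every chosen gene, *L3mbtl2*, *Ddx4*, up to 4 called or the 2 brightest genes of each list, the 5 nearest in pattern and the nearest 2 neighbours on each side. A further chosen gene and 1 list are not reported here. Genes and lists were chosen with earlier results of these data known.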

Additional observations from a re-analysis of the deposited data

How the results depend on the processing

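The alternatives were normexp background correction (on median spot intensities), quantile normalization, the authors' log2 table, no filter on dim probes or one over all arrays, slide or replicate block, an intensity trend, the one-way test, a 1.5-fold threshold, each sample left out and each slide alone. With the replicate block, the pairing left the count of up-regulated probes at 8 and changed the call of none of the 11 probes. Leaving out each sample gave 8 to 9 up-regulated probes, 5 to 6 genes and 19 to 21 other two-cell-like genes, the highest probe count without control replicate 4, where *Spz1* was called. The count of other two-cell-like genes was 18 with the filter over all arrays and 22 with quantile normalization. Slide 1 alone (2 against 2 arrays) gave 0 up-regulated probes, 0 genes and 0 other two-cell-like genes in limma. At an unadjusted p under 0.05, slide 1 alone gave 9 probes, 6 genes and 21 other genes. The share of all probes at that p was not counted, so these unadjusted counts are not read as support. Slide 2 alone, also 2 against 2, gave 7, 4 and 19 at the adjusted threshold. Over 219 values of single probes under alternatives, 208 kept their side of the threshold, 10 lost the call (slide 1 alone, slide 2 alone or the adjusted one-way test), 1 gained it and 0 called changes reversed. Under normexp (offset 50), *Sp110* probe 3 changed by 1.19. *Spz1* was well above background on 2 control arrays only, and its call depended on control replicate 4. The number of arrays limits the precision.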
